A study of Mus musculus with 12 samples.

Results

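Trimethylated lysine 27 of histone H3 (H3K27me3) was compared between wild type (WT, lincRNA-p21+/+) and lincRNA-p21 knockout (KO, lincRNA-p21-/-) mouse embryonic fibroblasts (MEFs), both mock treated. The members are H3K27me3 domains, made by joining the peaks of a deposited list that lie less than 3 kb apart. The WT mock list gave 10259 domains and the KO mock list 9836. Overlapping domains of both lists were merged into 12791 regions, out of 28731 regions formed in the same way from all 8 peak lists of the series (both marks) and 16427 from its 4 H3K27me3 lists. The series measured H3K27me3 and trimethylated lysine 4 (H3K4me3) by chromatin immunoprecipitation with sequencing in primary MEF cultures of a hybrid 129/B6 strain background. Besides the mock cultures, each genotype had cultures given doxorubicin to damage DNA, for 24 h at what the labels state as 0.5 mM. The doxorubicin lists serve here only as further readings of the same places. With 1 library per mark and condition, no difference below has a replicate check and no test between genotypes was made. The labels do not say how many embryos or cultures stood behind a library. Defining genes of fibroblasts could not be looked up, because no annotation of the lists' genome build (mm9) was used. For the same reason regions carry coordinates and no gene names, and no sequence is printed.

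H3K27me3 is written by Polycomb repressive complex 2, whose catalytic subunit is Ezh2 or Ezh1. The complex can bind the mark it makes through its subunit Eed, and in this way the mark spreads from a starting site into a domain. Polycomb repressive complex 1 reads the mark, and the domains are typically found over silent developmental regulators, with the Hox clusters among the longest. A promoter that carries H3K27me3 together with H3K4me3, the mark of active or poised promoters, is called bivalent. LincRNA-p21 is transcribed under the control of p53, and the series title ties it to the expression of Polycomb target genes.

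The WT mock library stood apart from the other libraries in the width of its peaks, in both marks. The narrowest H3K27me3 peak was 550 bp in WT mock against 365 bp in KO mock, and with doxorubicin 417 bp in WT and 344 bp in KO. The narrowest H3K4me3 peak was 422 bp in WT mock and between 235 and 270 bp in the 3 other lists. The first percentile of H3K27me3 peak width was 948 bp in WT mock and 666 bp in KO mock. Total lengths and edges are therefore given below beside those of H3K4me3 and of the doxorubicin lists, and the part of this peak width in the genotype differences was not tested. Read depth is unknown, since the lists hold no read counts. Each list has a floor of 80 on the authors' peak score, which is −10 times log10 of the peak's p-value.

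KO mock cells had about as many H3K27me3 domains as WT mock cells, but shorter ones. Peaks covered 48.0 Mb in WT mock and 36.3 Mb in KO mock, so that KO had 75.6% of the WT length. For H3K4me3 the covered lengths of the same cells were 33.4 and 27.1 Mb, with KO at 81.1% of WT. A shorter KO list was thus not particular to H3K27me3. The median H3K27me3 domain was 2783 bp long in WT mock and 2120 bp in KO mock, and the median H3K4me3 domain 2109 and 1833 bp. Domains of 10 kb or more numbered 1260 in WT mock and 890 in KO mock, and those of 20 kb or more 380 and 264. The doxorubicin lists lay near KO mock, with 39.0 Mb covered in WT and 35.9 Mb in KO, and with 992 and 869 domains of 10 kb or more. WT mock was thus the list with the longest coverage of the 4. A domain held 1.58 peaks on average in WT mock and 1.69 in KO mock, and 68.1% and 64.5% of the domains were single peaks.

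The lower covered length in KO was spread over the genome. On all 19 autosomes and on chromosome X the KO list covered less than the WT list. The lowest share was 68.6% on chromosome 16, with 1.10 Mb in WT and 0.754 Mb in KO. The highest shares were 83.0% on chromosome X and 82.6% on chromosome 13. H3K4me3 also covered less in KO on each of these 20 chromosomes, at 78.7 to 82.5% of WT. Chromosome 2 had the most coverage, 5.39 Mb in WT and 3.96 Mb in KO. Of the 516 windows of 1 Mb in which both lists together covered at least 50 kb, 492 had less in KO and 24 had more. The median window had 74.7% of the WT length, with quartiles of 67.1% and 83.8%. The window with the lowest share was at chr5:111000001-112000000, with 43.2 kb in WT and 16.2 kb in KO. The window with the highest share was at chr6:30000001-31000000, with 33.9 kb in WT and 44.1 kb in KO.

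**Figure D1:**
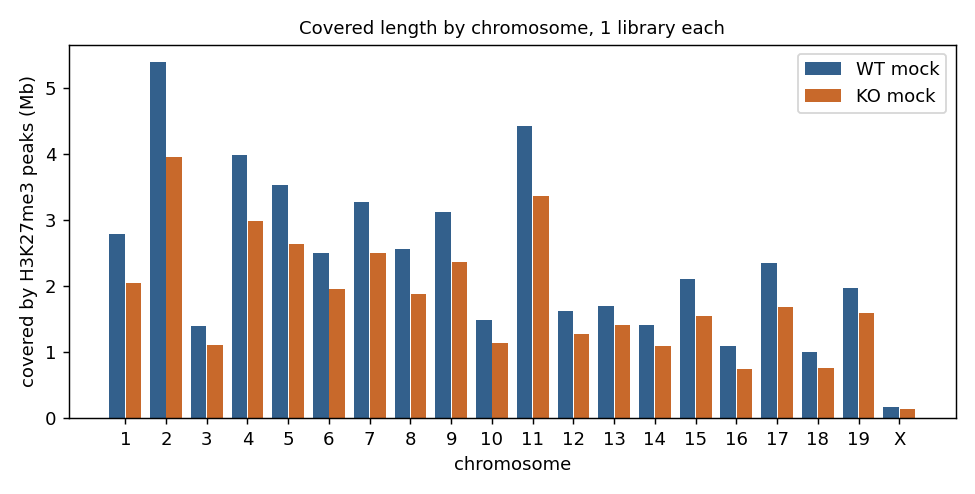
Length covered by H3K27me3 peaks (Mb, y axis) on each chromosome (x axis) in WT mock (blue) and KO mock (orange), 1 library each. The KO bar is below the WT bar on every chromosome drawn, from 68.6% of it on chromosome 16 to 83.0% on chromosome X.

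Bases rather than domains show where the length went. Both lists covered 28.5 Mb in common, which was 59.5% of the WT length and 78.7% of the KO length. WT peaks alone covered 19.4 Mb. Of this, 6.42 Mb (33.02%) lay in domains with no counterpart in KO. A further 2.93 Mb (15.1%) lay in gaps between the peaks of a KO domain, and 10.1 Mb (51.9%) in shared regions but outside every KO domain, at its edges or between its pieces. KO peaks alone covered 7.73 Mb, of which 3.31 Mb lay in domains with no counterpart in WT and 3.25 Mb beyond the WT domains of shared regions. The larger part of the WT surplus was therefore at places where both genotypes had the mark.

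Presence was counted by an overlap of at least 1 bp between domains. A WT domain with no KO domain is called lost and a KO domain with no WT domain gained, which describes the lists only. Of the WT domains 3501 were lost (34.1%) and of the KO domains 2703 were gained (27.5%). Exact (Clopper-Pearson) 95% binomial intervals, which cover counting error over domains only and are too narrow because neighbouring domains are not independent, were 33.2 to 35.1% and 26.6 to 28.4%. The balance turned when the highest-scoring peaks were taken up to the same summed length. There 857 of 6248 WT domains were lost (13.7%) and 4356 of 9836 KO domains gained (44.3%). That setting by its construction keeps only the highest-scoring part of the WT list and the whole KO list. The doxorubicin lists differed between the genotypes to a like extent, with 34.3% of WT and 32.8% of KO domains absent from the other list. Between the treatments, 33.3% of WT mock domains were absent in WT doxorubicin and 32.4% of KO mock domains in KO doxorubicin. These comparisons share the mock libraries.

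Absent domains were mostly short. Of WT domains under 2 kb 66.5% were lost (64.95 to 67.97%), of those of 2 to 5 kb 25.1% and of those of 5 to 10 kb 6.09%. Among domains of 10 to 20 kb 4 of 880 were lost, and among those of 20 kb or more 0 of 380. Where none was found, the limit given takes 3 domains as what a count of 0 allows, here 0.789%, and the upper end of the exact interval is somewhat higher, here 0.966%. Of KO domains under 2 kb 51.2% were gained (49.7 to 52.6%), of those of 2 to 5 kb 9.07% and of those of 5 to 10 kb 1.76%. None of 626 KO domains of 10 to 20 kb and none of 264 of 20 kb or more was gained, which allows up to 0.479% and 1.14%. Every domain of 20 kb or more in either list was thus met, at least in part, by a domain of the other.

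**Figure D2:**
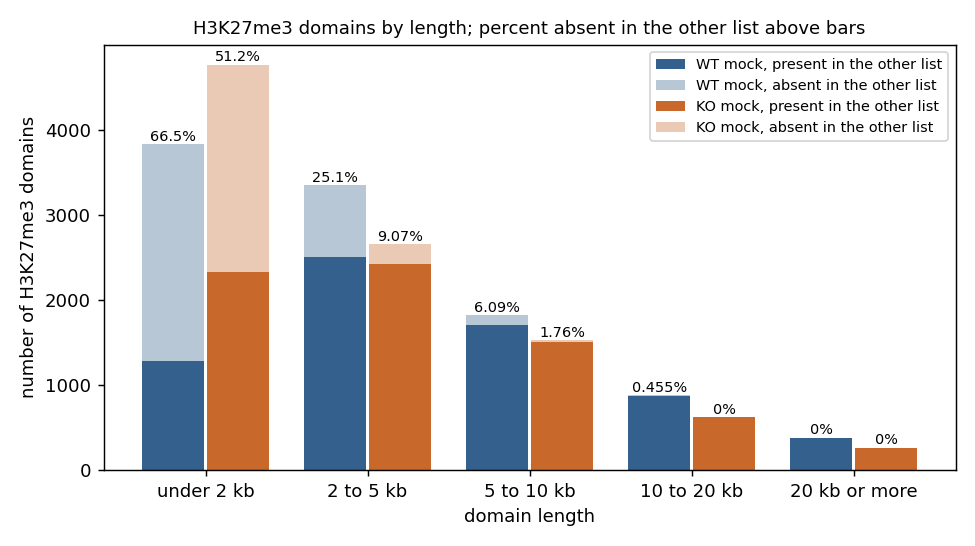
Number of H3K27me3 domains (y axis) by domain length (x axis) in WT mock (blue) and KO mock (orange), with the pale part of a bar for domains absent in the other list and their percentage above it. The pale part shrinks from 66.5% and 51.2% under 2 kb to 0 in both lists at 20 kb or more.

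Absence fell with the score in the same way. The domains of each list were ranked by their highest peak score and cut into 10 groups of about equal size. In group 1, the lowest, 75.5% of the WT domains were lost. In group 5 this was 38.01% and in group 8, at scores of 316 to 494, it was 2.63%. In group 9 just 1 of 1026 was lost and in group 10, the highest, 0 of 1026, which allows up to 0.292%. In the KO list 64.3% were gained in group 1, 28.9% in group 5 and 0.814% in group 8. In groups 9 and 10 it was 0 of 984 each, which allows up to 0.305%. Lost domains had a median length of 1584 bp and a median score of 108, against 4326 bp and 279 for WT domains present in KO. Gained domains had medians of 1077 bp and 103, against 3289 bp and 247 for KO domains present in WT. Scores of 300 or more were reached by 41 lost and 13 gained domains. Single peaks were absent more often, since 45.4% of WT domains made of 1 peak were lost and 1.99% of those made of 3 or more.

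A lost domain can be a place where a KO peak was numbered by the peak caller and not kept. Peak numbers run in order along each chromosome, and 39.0% of the numbers were missing in the WT mock list and 47.2% in the KO mock list. Of 3491 lost domains that lay between a pair of KO peaks, 384 lay where no KO number was missing, so that no numbered KO peak stood there. For gained domains this held for 466 of 2688. At the other 3107 and 2222 places a number was missing somewhere in the same interval, and whether it belonged to the place cannot be told from the lists. The nearest KO peak was within 3 kb of 520 lost domains and more than 100 kb away from 500. For gained domains the WT peak was within 3 kb of 599 and beyond 100 kb from 464.

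The 5 longest lost domains were spread over 4 chromosomes, and none of them overlapped an H3K4me3 peak in any of the 4 conditions. The longest lay at chr11:83620416-83631794, where 3 WT mock peaks covered 6.43 kb with a highest score of 162 and WT doxorubicin had 1.39 kb. Its end was 110 bp from a KO mock peak. The next, at chr14:63983734-63994729, had 7.26 kb covered in WT mock and 0 in KO mock, and with doxorubicin 2.65 kb in WT and 1.07 kb in KO. At chr4:153472273-153482688, 6.12 kb were covered in WT mock and 1.05 kb in WT doxorubicin, with no peak in either KO list. At chr4:139334723-139344964 the values were 7.61 kb and 1.41 kb, again with no peak in either KO list. The domain at chr9:114564227-114573597 had 6.43 kb in WT mock, 2.24 kb in WT doxorubicin and 1.96 kb in KO doxorubicin. All 5 were therefore present, but shorter, in WT doxorubicin cells.

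The 5 longest gained domains were shorter, at 6.499 to 7.503 kb. The longest was at chr13:64114489-64121991, with 5.75 kb in KO mock, 5.46 kb in KO doxorubicin, 5.08 kb in WT doxorubicin and the nearest WT mock peak 12006 bp away. It was thus absent from the WT mock list alone. At chr7:86908957-86916300, 3 KO mock peaks covered 3.10 kb and none of the 3 other lists had a peak. The domain at chr19:4939615-4946929 had 4.29 kb in KO mock, 2.22 kb in KO doxorubicin and 1.65 kb in WT doxorubicin, and an H3K4me3 peak in all 4 conditions. The domain at chr11:3624790-3632095 had 4.81 kb in KO mock, 0.817 kb in the other KO list and no peak in either WT list. The domain at chr1:36304876-36311374 had 3.94 kb in KO mock, 1.79 kb in KO doxorubicin and 1.06 kb in WT doxorubicin.

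The highest-scoring unmatched domains were looked up after the values were seen and do not represent their sets, in which 2.68% of all lost and 5.88% of all gained domains overlapped WT mock H3K4me3. The 3 highest-scoring lost domains lay at chr17:25656835-25662680 (score 511), chr1:187316865-187322192 (476) and chr5:122439874-122445117 (463). Each was a single WT peak of 5.24 to 5.85 kb, and none overlapped H3K4me3 in any condition. The 3 highest-scoring gained domains lay at chr11:7112108-7114885 (473), chr6:61128426-61132050 (407) and chr19:38554966-38558139 (399). Each was a single peak of 2.78 to 3.63 kb, overlapped H3K4me3 in all 4 conditions and had H3K27me3 in both doxorubicin lists. In these lists the 3 places carried both marks in every condition except WT mock, where the nearest H3K27me3 peak was 145270 bp away or further. The KO peak with the highest score of all those without a WT peak, a 530-bp peak at chr17:29215682-29216211 (score 2937), did not give a gained domain. It was joined into a 7.24-kb KO domain from 29208971 that overlapped 2.03 kb of WT mock peak.

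Shared places numbered 6587, and most of them were shorter in KO. In 5142 (78.1%) the covered length was lower in KO and in 1444 it was higher. The median shared region had 3999 bp covered in WT and 2992 bp in KO, and the median share was 78.3% (quartiles 58.2% and 97.1%). A length lower in KO by 2-fold or more was found in 1114 regions (16.9%) and higher by 2-fold or more in 109 (1.65%). The share rose with size, from a median of 71.8% in regions with a mean of under 2 kb covered to 90.6% in the 255 with 20 kb or more. In bases the gap grew with size, from 458 bp to 3050 bp between the same classes. At the 1114 regions with the 2-fold shortfall the median covered lengths were 3982 bp in WT mock against 1284 bp in KO mock, and with doxorubicin 1730 bp in WT and 1391 bp in KO. Both doxorubicin values lay nearer to KO mock, and WT doxorubicin was the longer of the pair in 603 regions and KO doxorubicin in 375. These regions were chosen for a long WT mock value, so that a shorter value elsewhere was to be found in part from the choice itself. Within WT, 1024 of 6645 shared regions were lower by 2-fold or more in doxorubicin than in mock, and 184 were higher. Within KO these counts were 544 and 473 of 6397. Between the doxorubicin lists, 618 of 6505 were lower in KO and 368 higher. The strong excess of 2-fold shortfalls was thus not particular to the genotype comparison, and WT mock was part of both pairs that had it.

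**Figure D3:**
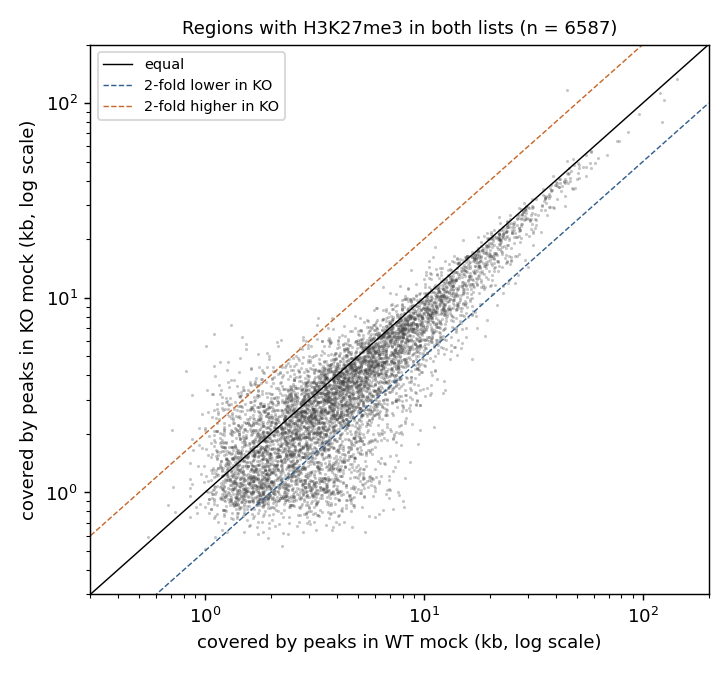
Length covered by peaks in KO mock (kb, log scale, y axis) against WT mock (kb, log scale, x axis) for the 6587 regions with H3K27me3 in both lists, 1 point per region, with lines for equal length and for 2-fold differences. Most points lie below the line of equality (5142 regions), and 1114 lie on or below the line for 2-fold lower in KO against 109 on or above that for 2-fold higher.

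KO domains were narrower at both edges. Of the shared regions, 6001 were 1 domain in each list. The WT domain began a median of 260 bp before the KO domain (quartiles −169 and 953 bp) and ended 284 bp after it (−169 and 997 bp). WT reached beyond KO at both edges in 43.4% of these regions, and KO beyond WT at both in 9.47%. The WT domain was the longer in 72.5%, by a median of 664 bp over all. The offset per edge grew little with domain size, from 176 and 188 bp at mean lengths under 2 kb to 368 and 383 bp at 20 kb or more, with 467 and 399 bp in the class below.

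Offsets in the same direction were present in H3K4me3, and those between H3K27me3 lists were smaller without WT mock. Among 12878 H3K4me3 regions that were 1 domain in each list, WT mock reached 150 bp further than KO mock at both the left and the right edge and was longer in 85.5%, by a median of 314 bp. For H3K27me3 between WT and KO doxorubicin the edge offsets were 82.5 and 76.0 bp, with WT longer in 57.9%. Between KO mock and KO doxorubicin they were 32.0 and 19.0 bp. Between WT mock and WT doxorubicin, within a genotype, they were 184 and 209 bp with mock longer in 66.5%. With each WT mock peak shortened by 157 bp on both sides, which takes away the median H3K4me3 difference and was tried after seeing the data, KO covered 84.5% of the WT H3K27me3 length. Regions with a 2-fold shortfall in KO then numbered 781 and those with a 2-fold surplus 245. WT mock was thus broader than the other lists in both marks, and genotype and library cannot be told apart in this width.

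**Figure D4:**
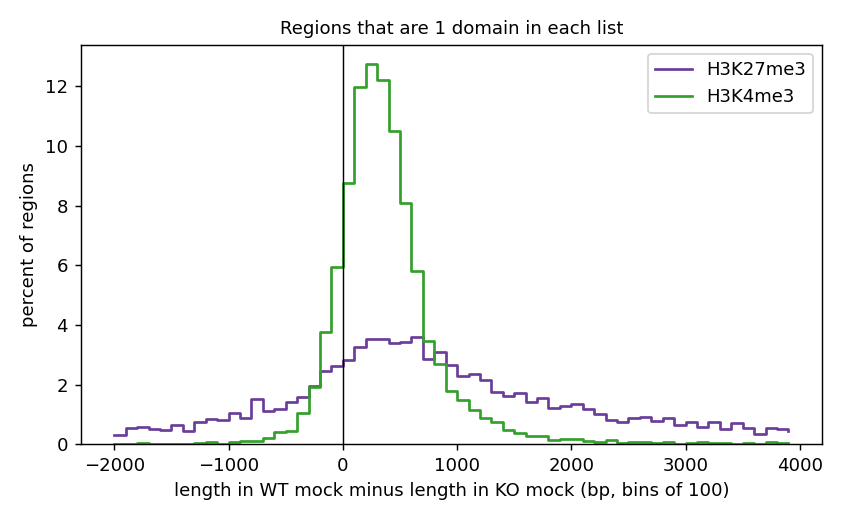
Percentage of regions (y axis) by length in WT mock minus length in KO mock (bp, bins of 100, x axis) for regions that are 1 domain in each list, H3K27me3 in purple (n = 6001) and H3K4me3 in green (n = 12878). Both curves are centred to the right of 0, with medians of 664 and 314 bp, and 14.0% of H3K27me3 and 0.357% of H3K4me3 regions lie outside the drawn range.

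Splitting went more often from WT to KO than the other way. Of the WT domains 458 (4.46%) overlapped 2 or more KO domains, and of the KO domains 159 (1.62%) overlapped 2 or more WT domains. These counts depended on the settings, and the numbers of domains changed with them. Without joining, 2488 of 16160 WT domains and 1071 of 16580 KO domains were split. Joining peaks less than 1 kb apart gave 864 of 12487 and 205 of 12140. Top peaks of equal summed length gave 248 of 6248 and 161 of 9836. The counts lay closest there, but over unlike totals. Long domains were split most. The joining rule sets part of this, since a split domain must span a gap of 3 kb or more. In the WT list no domain under 2 kb or of 2 to 5 kb was split in KO. Among WT domains of 20 kb or more 45.5% were split in KO (40.4 to 50.7%), and of KO domains of that length 16.7% were split in WT (12.4 to 21.7%). At 10 to 20 kb the shares were 24.2% and 9.42%. Most split WT domains fell into 2 pieces (382), 65 into 3, 10 into 4 and 1 into 5. The 546 KO gaps behind these splits had a median of 4190 bp, and 43.6% were under 4 kb, just above the joining distance of 3 kb. WT peaks covered a median of 55.0% of such a gap, with a median highest score of 373. In the 171 WT gaps that split a KO domain, KO peaks covered a median of 42.2%. The same counts in doxorubicin-treated cells were 309 WT domains split in KO and 217 KO domains split in WT. Within WT, 455 mock domains (4.44%) were split in doxorubicin and 177 doxorubicin domains (1.72%) in mock. Within KO these counts were 255 (2.59%) and 218 (2.14%). An excess of this size was thus not particular to the genotype comparison, and WT mock was part of both pairs that had it.

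The WT domain with the most pieces was at chr2:28849645-28907855, a 58.2-kb domain of 12 WT mock peaks with no H3K4me3 peak in any condition. In KO mock it was met by 5 domains of 0.772 kb, 15.6 kb, 4.68 kb, 3.95 kb and 15.2 kb. Its covered length was 40.8 kb in WT mock against 31.4 kb in KO mock, and with doxorubicin 36.6 kb in WT and 27.6 kb in KO. A further 10 fell into 4 pieces, of which 4 are described here. The 79.7-kb domain at chr13:99103465-99183211 had 62.8 kb in WT mock against 52.5 kb in KO mock, and with doxorubicin 57.6 kb in WT and 58.7 kb in KO. The 70.5-kb domain at chr4:136458663-136529148 had 59.9 kb against 48.2 kb, and 55.6 and 49.4 kb with doxorubicin. The domains at chr19:10428185-10489584 and at chr5:113735049-113782730 had 50.6 and 37.6 kb in WT mock and 36.7 and 29.0 kb in KO mock. In each of these 5 the highest score was higher in KO mock than in WT mock, for instance 2609 against 1509 on chromosome 13, although score levels are not scaled between lists.

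In the other direction a 62.3-kb KO domain at chr4:117156881-117219200 was met by 5 WT mock domains. Its covered length was 34.4 kb in WT mock against 44.0 kb in KO mock, and with doxorubicin 41.4 kb in WT and 45.6 kb in KO. The KO domain at chr6:72140349-72190784 was met by 3 WT domains, with 38.8 kb in WT mock against 42.3 kb in KO mock, and with doxorubicin 12.6 kb in WT and 26.8 kb in KO. Here both genotypes had less with doxorubicin. The KO domains at chr9:107262415-107310187, chr4:151489525-151536051 and chr11:82723555-82754938 were each met by 3 WT domains. Their covered lengths differed by 2.63 kb or less between WT mock and KO mock.

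The largest single differences were stretches that 1 list left empty, which were looked for after the values were seen. A stretch of 87.7 kb at chr11:96121286-96208980 had no WT mock peak, while 6 KO mock peaks covered 85.0 kb of it with a highest score of 1737. WT doxorubicin had 64.0 kb covered there by 20 peaks and KO doxorubicin 46.8 kb by 25. WT mock was alone in listing no peak there, which is not a measurement of no mark, since reads were not used. The WT mock peaks on both sides carried consecutive numbers, with 0 missing between them, so that no numbered WT peak was left out of the stretch. H3K4me3 peaks stood inside it in every condition, 10 in each mock list and 13 in each doxorubicin list. The whole region, from 96106416 to 96245061, had 45.2 kb in WT mock against 117 kb in KO mock, and with doxorubicin 95.6 kb in WT and 64.8 kb in KO. The Hoxb genes are on chromosome 11, and whether the stretch lies at them was not determined here.

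In KO mock 1 empty stretch had 20 kb or more covered in WT mock. At chr2:74556370-74592385, 36.0 kb without a KO mock peak were covered over 36.0 kb by 2 WT mock peaks with a highest score of 664. WT doxorubicin had 30.8 kb covered by 9 peaks with a highest score of 1532, and KO doxorubicin 26.9 kb by 7 peaks, so that KO mock alone listed no peak. A single KO peak number was missing in the stretch, so that a numbered KO peak that was not kept may have stood there, and reads were not used to look at it. H3K4me3 peaks numbered 2 in WT mock against 1 in KO mock, and with doxorubicin 4 in WT and 2 in KO. The region around it, from 74480481 to 74609041, had the largest WT surplus of all shared regions, with 123 kb in WT mock against 80.3 kb in KO mock, and with doxorubicin 111 kb in WT and 102 kb in KO. The Hoxd genes are on chromosome 2, with the same limit on placing them. Among peak-free stretches of up to 200 kb, the chromosome 11 stretch was the sole one in the WT mock list in which KO peaks covered 10 kb or more, and the KO mock list had 12 in which WT peaks did. Both empty stretches lay inside long regions that the doxorubicin lists of the same genotype covered.

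**Figure D5:**
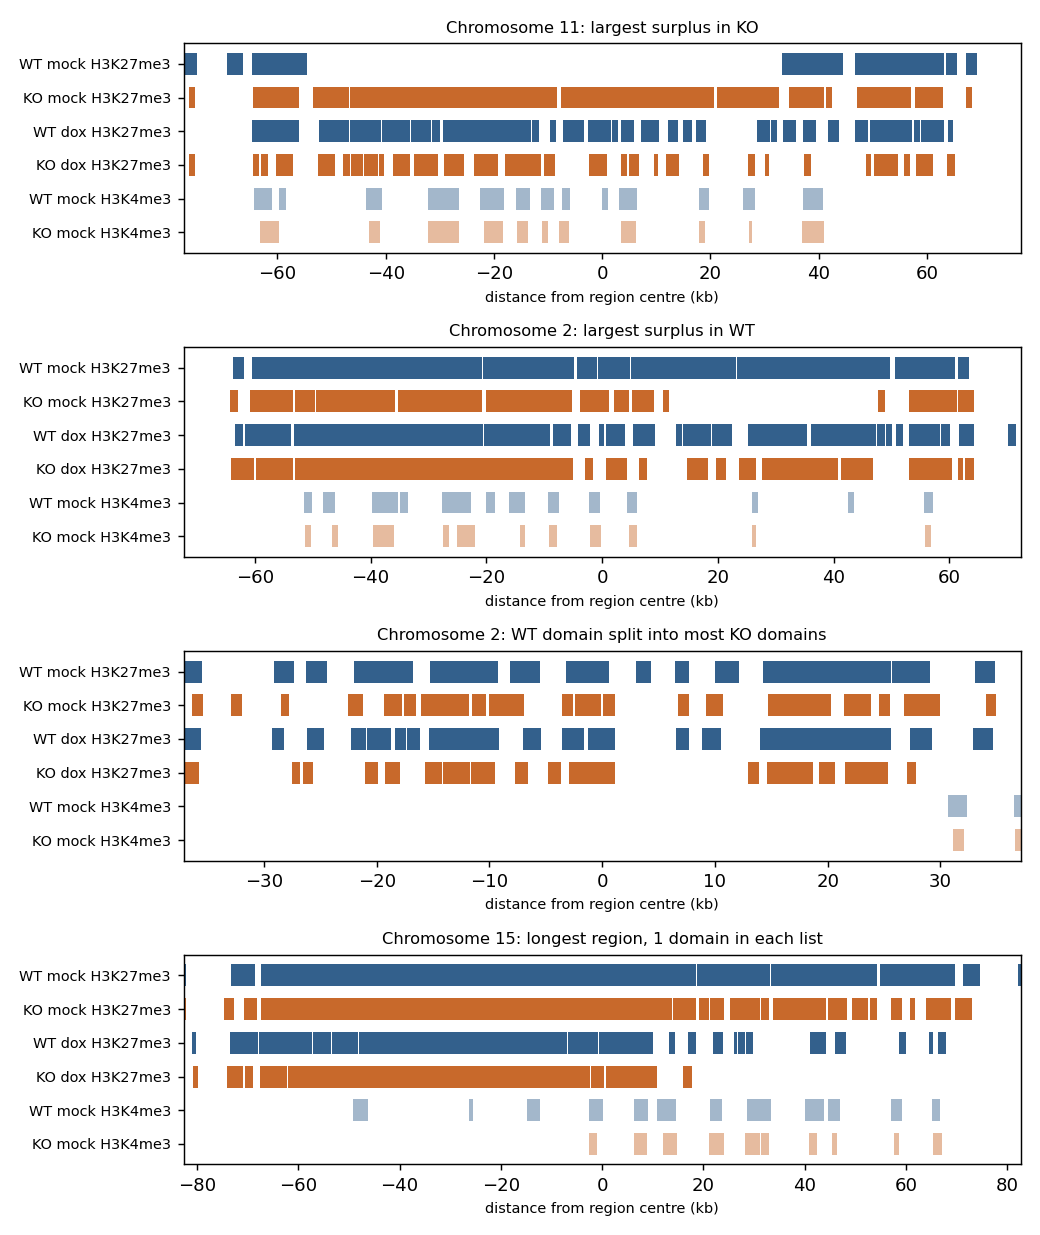
Peaks (bars) along 4 regions by distance from the region's centre (kb, x axis) in the 4 H3K27me3 lists and the 2 mock H3K4me3 lists (rows; WT in blue, KO in orange, H3K4me3 pale). The top panel shows the 87.7-kb stretch on chromosome 11 empty in WT mock alone, the second the 36.0-kb stretch on chromosome 2 empty in KO mock alone, the third a WT domain met by 5 KO domains, and the bottom panel a region of 149 kb on chromosome 15 that is 1 domain in each mock list.

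The other leading surpluses were smaller, and those in KO the smallest. In WT they were at chr19:44786050-44920029 (125 kb in WT mock and 104 kb in KO mock), chr6:83585079-83621060 (30.0 and 14.3 kb), chr19:10401963-10490046 (69.0 and 54.1 kb) and chr9:57894141-57942905 (44.1 and 29.5 kb). At all 4 places WT doxorubicin was also longer than KO doxorubicin, by between 1.93 and 13.4 kb. Over the whole lists WT doxorubicin likewise covered more than KO doxorubicin, 39.0 against 35.9 Mb. After chromosome 11, the leading surpluses in KO lay at chr9:36938818-36973500 (11.3 kb in WT mock and 18.3 kb in KO mock), chr11:64767058-64775666 (1.31 and 7.28 kb), chr4:117145030-117219200 (45.1 and 50.6 kb) and chr7:116312068-116322065 (1.10 and 6.56 kb). In the same order, WT and KO doxorubicin had 17.8 and 22.1 kb, 5.43 and 3.44 kb, 51.3 and 54.6 kb, and 4.22 and 5.41 kb. KO doxorubicin was thus the longer at all of them except chr11:64767058-64775666.

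Several of the longest domains had nearly the same covered length in both mock lists. The longest region that was 1 domain in each list spanned 149 kb at chr15:102724822-102874089, with 144 kb covered in WT mock, 133 kb in KO mock, 99.2 kb in WT doxorubicin and 84.3 kb in KO doxorubicin. At chr11:96021946-96083325, next to the region with the empty stretch, the 4 lists covered 57.1 to 58.0 kb. At chr9:91243881-91305410 they covered 54.1 to 55.5 kb, and at chr4:115598646-115660080 53.8 to 58.3 kb. At chr19:43642222-43702591 WT mock had 55.2 kb and the 3 other lists 47.0 to 48.1 kb. The first of these is on the chromosome of the Hoxc genes, whose place in it was not determined.

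H3K4me3, a readout that took no part in choosing the regions, set the shared places apart from the unmatched ones. Of the shared regions 31.6% (30.5 to 32.7%) overlapped a WT mock H3K4me3 peak and 25.3% a KO mock one. Of the lost domains 2.68% (2.18 to 3.28%) overlapped WT mock H3K4me3 and 2.26% KO mock H3K4me3. Of the gained domains 5.88% and 4.74% (3.97 to 5.61%) did. Longer regions overlap more by their size, and the order held within the size classes under 5 kb. At 5 kb or more just 30 lost and 1 gained regions were left, too few to compare. Where the longer of the lists covered under 2 kb, 13.7% of shared, 2.16% of lost and 5.38% of gained regions overlapped WT mock H3K4me3. At 2 to 5 kb the shares were 23.2%, 4.12% and 11.4%. Seen from the domains, 4.39% of the 2143 WT domains with WT mock H3K4me3 were lost, against 42.0% of the 8116 without it. Under 2 kb these were 23.0% (17.8 to 28.9%) and 69.4% (67.8 to 70.9%). In the KO list 38.1% and 51.9% of domains under 2 kb with and without KO mock H3K4me3 were gained. Score was not held equal in these comparisons, and unmatched domains had lower median scores than matched ones.

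Shared regions that overlapped H3K4me3 in both mock lists had a higher KO share of the WT covered length than those without it. No promoters were identified, so these are regions of any kind whose span meets an H3K4me3 peak of a separate library. The 1630 shared regions with H3K4me3 in both mock lists had a median KO length of 87.5% of WT (quartiles 72.5% and 101%), and 5.89% were lower by 2-fold or more. The 4471 without H3K4me3 had 72.4% (52.7% and 94.5%), and 22.0% were lower by 2-fold or more. The gap was present in each size class, with 90.5% against 70.1% under 2 kb, 87.5% against 71.4% at 2 to 5 kb, 86.4% against 73.6% at 5 to 10 kb, 85.6% against 79.3% at 10 to 20 kb and 90.8% against 85.4% at 20 kb or more. The 451 regions with H3K4me3 in WT mock but not in KO mock had a median of 84.9%, with 6.21% lower by 2-fold or more. The 35 with H3K4me3 in KO mock but not in WT mock had 80.03%, and 6 of them (17.1%) were lower by 2-fold or more. That share was near the 16.9% of all shared regions and rests on few regions. Score was not held equal between these kinds of region.

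The doxorubicin lists held most shared places and fewer of the unmatched ones. Of the shared regions 86.0% were found in WT doxorubicin and 84.2% in KO doxorubicin. Of the lost domains 31.6% (30.1 to 33.2%) were found in WT doxorubicin and 27.4% (26.0 to 29.0%) in KO doxorubicin, and 55.6% in neither. Of the gained domains 28.9% (27.2 to 30.6%) were found in WT doxorubicin and 31.7% (30.0 to 33.5%) in KO doxorubicin, and 54.9% in neither. Size was part of this contrast: where the longer of the mock lists covered under 2 kb, WT doxorubicin had 54.3% of shared, 25.3% of lost and 26.0% of gained regions. A domain lost or gained between the mock lists was only slightly more often in the doxorubicin list of its own genotype, by 4.14 percentage points for losses and 2.85 for gains. In base pairs the lost domains held 6.42 Mb of WT mock peaks, 1.32 Mb of WT doxorubicin peaks and 1.05 Mb of KO doxorubicin peaks. The gained domains held 3.31 Mb of KO mock, 0.816 Mb of KO doxorubicin and 0.762 Mb of WT doxorubicin peaks.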

How the data were processed

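ChIP-seq peak lists of WT mock and KO mock MEFs were compared, with the doxorubicin and H3K4me3 lists beside them. Reads and input libraries were left out. The submitters' processing notes name Bowtie 0.12.7 and MACS 1.4.2 as tools and mm9 as build. The deposited score is −10 times log10 of the peak's p-value, per the file headers. The authors' lists hold no score under 80 and no read counts, so that depth is unknown. Coordinates are printed counting from 1, on the assumption that deposited starts count from 0. Peaks less than 3 kb apart were joined and an overlap of 1 bp counted as present. The largest joined gaps were 2998 bp in WT and 2997 bp in KO, and the smallest not joined 3000 and 3007 bp. Named regions are 5 for each rule: longest lost, longest gained, largest surplus each way, most pieces each way and longest 1-domain regions. The members and rules were chosen with earlier results of these data known. Planned gene and marker lists were not used, for want of an mm9 annotation. Alternatives were other joining distances, a score of at least 100, equal numbers or lengths of top peaks, 50% overlap, presence within 3 kb and autosomes only. The code was tested on a copy of the WT mock H3K27me3 list joined into widely spaced intervals. Known losses, gains, splits and shortenings were put into it. The joining of close peaks was not part of that check. Computing used pandas 2.3.3 and numpy 2.4.6 under Python 3.11.15, intervals scipy 1.17.1, and plots matplotlib 3.10.9.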

Additional observations from a re-analysis of the deposited data

Results flagged for a closer look

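At 5 of the 35 named regions the covered length differed between the genotypes in opposite directions in mock and in doxorubicin-treated cells. With 1 library per condition this difference was not tested. Over all 6587 shared regions the directions were opposite in 2604 (39.5%), so that such a pattern was common. In 6056 of the 6587 both differences were other than 0. The named regions also include lost and gained domains, which are not shared regions, so the sets differ in kind. The 35 regions overlap in part and form 33 separate places, and they were chosen by rules that use the mock lists. On chromosome 11 from 96106416 to 96245061 KO minus WT was 72.0 kb in mock and -30.7 kb with doxorubicin. On chromosome 11 from 64767058 to 64775666 it was 5.97 kb and -1.997 kb. On chromosome 13 from 99103465 to 99183211 it was -10.4 kb and 1.07 kb, and on chromosome 5 from 113735049 to 113782730 it was -8.59 kb and 0.015 kb. On chromosome 11 from 82723555 to 82754938 it was 1.92 kb and -0.824 kb.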

How the results depend on the processing

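No paired analysis was possible because each group has 1 library. Of 69 values recomputed under alternatives, 53 stayed close to the reported ones and 16 did not. Close meant within 1.5 times for counts, which is a wide margin. An overlap of at least 50% of the domain counted as close, yet it gave 5166 losses (50.4% of WT domains). Gains were 3382 there (34.4% of KO domains). For the covered-length ratio it meant within the exact 95% binomial interval of KO's share of the summed length, counted over regions. Length is not a count of regions, so that interval is a yardstick only and measures no sampling spread. Without joining, losses were 5864 (36.3% of 16160 WT domains) and gains 4229 (25.5% of 16580 KO domains). The shares in the main setting were 34.1% and 27.5%. Also without joining, WT domains split were 2488 and KO domains split 1071, and regions 2-fold higher in KO 62. Joining below 1 kb gave 864 split WT domains. Joining below 10 kb gave 2157 losses (29.5%), 1756 gains (24.5%) and 93 split KO domains. Across these joining settings the loss and gain shares thus moved less than the counts. A score of at least 100 left 70 regions 2-fold higher in KO. Top peaks of equal summed length gave 857 losses (13.7% of 6248 WT domains) and 4356 gains (44.3% of 9836 KO domains). Losses no longer exceeded gains there. The same setting gave 248 split WT domains and 668 regions 2-fold lower in KO. Shortening the WT peaks, an alternative added after seeing the data, gave a KO length of 84.5% of WT and 245 regions 2-fold higher in KO. Leaving out the empty stretches on chromosomes 11 and 2, also added, changed no count by more than 1.5 times. Removing so few places could hardly have done so, and the same holds for chromosome X with its few domains. Both settings are counted among the 53. The overlap settings do not enter covered length, splitting or the 2-fold counts, and joining does not enter covered length. Equal summed lengths fix the covered-length ratio, which was not given. The floor of 80 and the unknown depth limit every count of absent domains.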
